A study of Mus musculus with 24 samples.

Results

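The genes examined were 40 interferon response and antigen presentation genes, taken as a fixed list of names from a table of 54087 gene symbols; all 40 had counts in mouse embryonic skin (E18.5), and all 40 were among the 17094 genes that passed the filter on low counts. By role, 5 of them formed a sensor group, made of sensors of viral nucleic acid and the ubiquitin ligase gene Trim25. There were 6 interferon signalling factors, 5 genes of the IFIT, ISG15 and USP18 group and 9 of the OAS, MX, viperin and CMPK2 group. The rest were 6 other induced genes, 3 guanylate-binding proteins and 6 genes of class I antigen presentation. Poly(A) RNA-Seq compared dorsal skin of wild-type embryos (WT, Dsg1+/+), embryos with 1 deleted Dsg1 allele (HET, Dsg1+/-) and embryos with both alleles deleted (KO, Dsg1-/-). The deleted allele lacks the tandem genes Dsg1c, Dsg1a and Dsg1b, the genes of desmoglein 1 (the desmosomal cadherin of upper epidermal layers); it was made by gene editing in C57BL/6J zygotes, the genes are deleted in every tissue rather than in keratinocytes alone, and it came from a single founder, so all HET and KO embryos carry the same deletion. No embryo received a treatment, and KO pups die within hours of birth. The study asked how loss of desmoglein 1 alters skin gene expression, inflammatory genes included, and the comparison here asks whether interferon-induced and antigen presentation genes differed between the genotypes.

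As background, cells that sense viral RNA or DNA secrete type I or type III interferons, which bind surface receptors, activate JAK kinases and drive transcription factors, STAT2 and IRF9 among them, onto a promoter element called the interferon-stimulated response element. The genes switched on in this way block viral replication, and several of them, such as Irf7, Stat2 and the RNA sensors, feed back on the pathway itself. Interferon gamma acts through a separate receptor and raises guanylate-binding proteins, the immunoproteasome and the class I pathway, which loads peptides on MHC molecules for display to T cells. Skin keratinocytes, fibroblasts and resident leukocytes can all respond, so in a bulk skin sample a change in cell number and a change in RNA per cell cannot be told apart.

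The data comprised 24 libraries with 8.98 to 20.96 M counts each, in 2 formats of title, called the first (9 libraries) and second (15 libraries) title series here. Libraries that share a title number and a genotype were summed, which gave 15 columns of 15.3 to 33.7 M counts, 5 for each genotype, named replicates 1 to 5 by ascending title number. The labels do not say that title numbers are embryos, so p-values measure the spread between these columns. The summed CPM (counts scaled to a common library size with TMM factors) of Dsg1a, Dsg1b and Dsg1c was 806 ± 112 in WT, 422 ± 51.5 in HET and 0.548 ± 0.343 in KO (mean ± SD, n = 5 each), as the labels state. WT replicate 2 was in doubt: its 2 libraries carried the same number, 35, but 1 had 325 CPM of 4 Y-linked genes and 0.264 CPM of Xist, and the other had 0.155 and 567 CPM, so these 2 libraries differ in sex-linked expression, and results are given with and without it. Columns high in Y-linked genes numbered 1 in WT, 3 in HET and 3 in KO. WT replicate 4 also stood apart, being the highest WT column for 31.3% and the lowest for 32.4% of all genes tested. The tissue label was borne out by markers, with a summed level of 54067 to 95911 CPM for 6 keratinocyte genes and 10849 to 26618 CPM for 4 fibroblast genes over the 15 columns. The Langerhans cell gene Cd207 had 3 counts or fewer in total.

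The interferon genes themselves were near or below detection in E18.5 skin of every genotype. Of 10 interferon genes looked up, Ifnb1, Ifna1, Ifna2, Ifna4, Ifna5, Ifnl2 and Ifnl3 had 0 counts among 380 M counts of all columns together, which allows a level of up to 0.00790 CPM, for counting error only. Ifne had 5 counts in all, Ifng 4 and Ifnk 1, and no such gene passed the filter. The genes that respond to interferon were nonetheless all present. Per kb of merged exon length (GENCODE M21), B2m, the invariant light chain of MHC class I, had the highest level of the 40 genes at 136 CPM per kb averaged over 15 columns, followed by the class I heavy chain H2-D1 at 32.6, the virion tether Bst2 at 23, the small mitochondrial protein gene Ifi27l2a at 18.6 and the heavy chain H2-K1 at 14 CPM per kb. Oas3, a synthetase of the 2-5A signal that activates RNase L, was lowest at 0.0820 CPM per kb. Mx2 and Mx1, which encode dynamin-like antiviral GTPases, had 0.301 and 0.354 CPM per kb, and the nucleic acid sensor Zbp1 0.398. In per-length levels, the light and heavy chains of class I were thus at the abundant end of the list and the MX genes and Oas3 at the scarce end.

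Few of these genes passed the adjusted p limit between KO and WT skin, and few of all genes tested did. In KO vs WT, 0 of 40 members were called in edgeR, in DESeq2 and in limma-voom alike. The limits were those the study states (adjusted p at most 0.1 and at least a 2-fold change either way). Over all 17094 genes tested, edgeR called 55 (0.322%), DESeq2 190 and limma-voom 100. At such shares, 0 of 40 does not set the members apart from all genes. Dropping the fold limit left 1 member (2.5%), Ifi35, against 1.15% of all genes, and 2 of 40 members (5%), Rsad2 and Ifi35, had an unadjusted p below 0.05, against 19.3% of all genes. The median log2 fold change of the 40 was -0.02, with 18 members above and 22 below 0, beside -0.01 for all genes tested. Without WT replicate 2, the median was -0.02, Rsad2 and Ifi35 were again the members with an unadjusted p below 0.05, and no member passed the adjusted p limit. KO and WT columns did not overlap for 1 member, Ifi35 (2.5%), against 3.37% of all genes. The members were measured less precisely than the average gene, with a median standard error (SE) of 0.23 against 0.14, and their spread between columns of a genotype was larger, with a median SD of 0.35 against 0.21 on the log2(CPM + 0.5) scale. Even so, the 95% interval of the fold change lay within a 2-fold change in either direction for 34 of 40 members (85.0%), against 84.7% of all genes. The 6 members whose interval reached past it were Zbp1, Ifit1, Ifit3, Oas3, Rsad2 and Gbp2, and for these a 2-fold difference lies inside the interval.

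**Figure D1:**
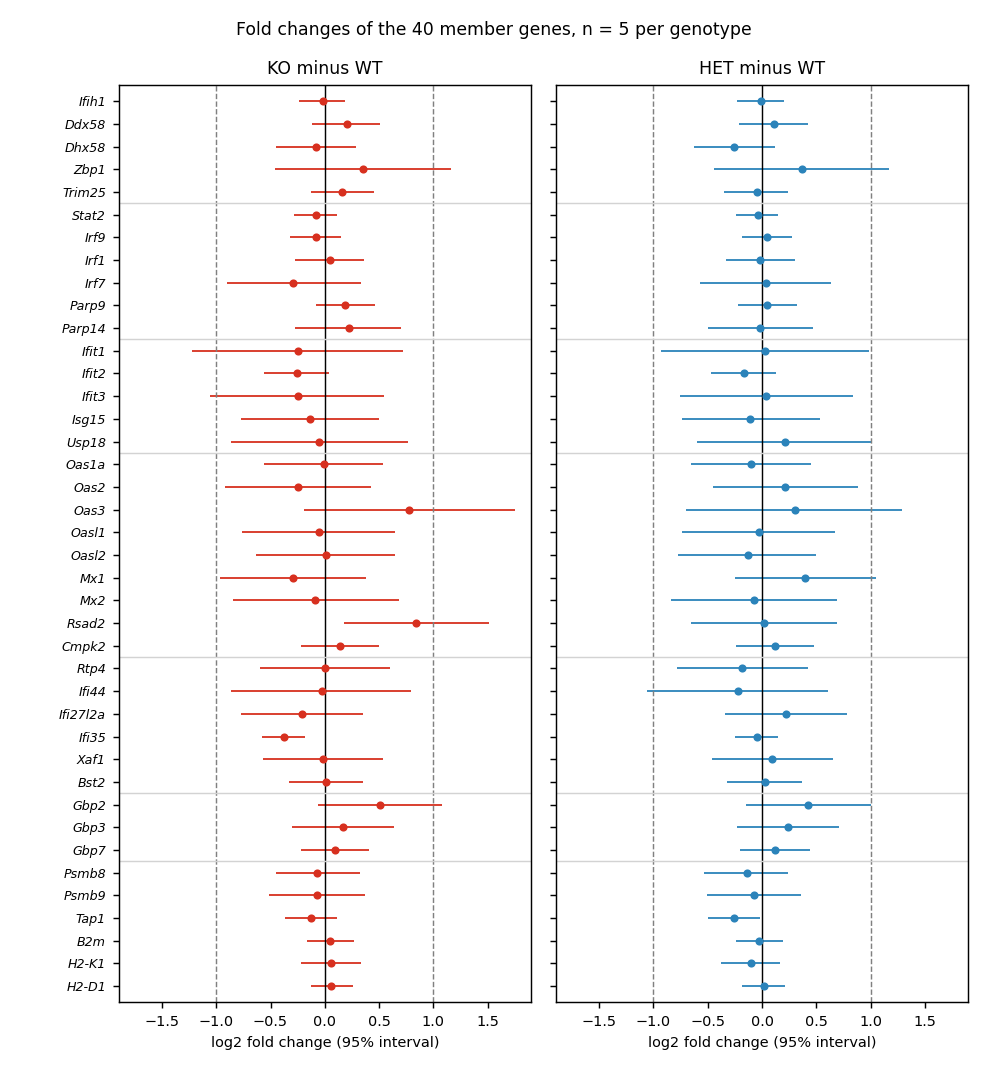
Log2 fold change of each member (x axis; points, with 95% intervals from the edgeR fit as bars) in KO minus WT (left) and HET minus WT (right), 5 columns per genotype; dashed lines mark a 2-fold change and grey lines separate the role groups. Rsad2 at 0.84 and Ifi35 at -0.38 are the KO members whose intervals leave 0, and Tap1 at -0.26 is the HET member that does so.

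The largest KO difference of the list was in Rsad2, which encodes viperin, a radical-SAM enzyme that makes a chain-terminating nucleotide against viral polymerases. In replicates 1 to 5, Rsad2 was 5.63, 5.42, 5.5, 9.93 and 5.29 CPM in WT, 5.21, 7.14, 11.1, 4.42 and 4.21 CPM in HET and 7.45, 9.66, 10, 21.2 and 9 CPM in KO. All KO columns were above 4 of the 5 WT columns, but WT replicate 4 lay inside the KO range, and KO replicate 4 was far above every other column. The log2 fold change in KO vs WT was 0.84 (SE 0.31, 95% interval 0.18 to 1.51), with an unadjusted p of 0.0166 in the fit across all genes and an adjusted p of 0.175, which does not pass. The value depended on single columns. Without KO replicate 4 it was 0.51 (adjusted p = 0.404), and without WT replicate 4 it was 1.06 (adjusted p = 0.0760), which would be a call. Without WT replicate 2 it was 0.79 (adjusted p = 0.310), and DESeq2 gave 0.86 with an adjusted p of 0.0793. In the first title series alone it was 0.34 (adjusted p = 0.772), and in the second 0.90 (adjusted p = 0.137). The first series holds 3 libraries per genotype and lacks KO replicate 4, so these 2 fits also differ in their columns. Cmpk2, the mitochondrial nucleotide kinase gene that neighbours Rsad2 on chromosome 12 and is commonly induced with it, had a smaller value. Its columns were 10.6, 8.93, 8.03, 6.99 and 7.1 CPM in WT, 8.92, 9.67, 10.4, 8.13 and 8.04 CPM in HET and 9.71, 10, 5.4, 11.2 and 9.76 CPM in KO, and its log2 fold change in KO vs WT was 0.14 (SE 0.17, adjusted p = 0.656). KO replicate 3, which was low for Cmpk2, was not low for Rsad2.

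Ifi35, the other member with a low p, differed in the opposite direction. It encodes a leucine-zipper protein that pairs with NMI in the interferon response. Ifi35 was 21.5, 19.3, 20.1, 15.9 and 18.1 CPM in WT, 16.4, 20.5, 19, 16.9 and 18.7 CPM in HET and 13.6, 14.6, 15.7, 14.3 and 14.5 CPM in KO. Every KO column was below every WT and every HET column, although KO replicate 3 and WT replicate 4 differed by little. The log2 fold change was -0.38 (SE 0.09, 95% interval -0.58 to -0.18, adjusted p = 0.0964), so Ifi35 fell in KO by less than the fold limit of a call, and its KO columns were the least spread of the 3 genotypes (SD 0.743 CPM against 2.13 in WT and 1.68 in HET). Ifi35 was lower in value in KO in all 25 alternative fits, with log2 fold changes from -0.44 to -0.29, but its adjusted p was at most 0.1 in 10 of them; without WT replicate 2 the value was -0.37 with an adjusted p of 0.215. An annotated gene on the opposite strand, Gm11626, overlaps its exons, and whether the counting used the strand is not stated. NMI, its partner, is encoded by Nmi, named here after its values were seen: it had 9.45 ± 2.11 CPM in WT, 9.34 ± 0.924 in HET and 7.74 ± 0.965 in KO (mean ± SD, n = 5 each), and its log2 fold change in KO vs WT was -0.29 (SE 0.14, adjusted p = 0.288).

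**Figure D2:**
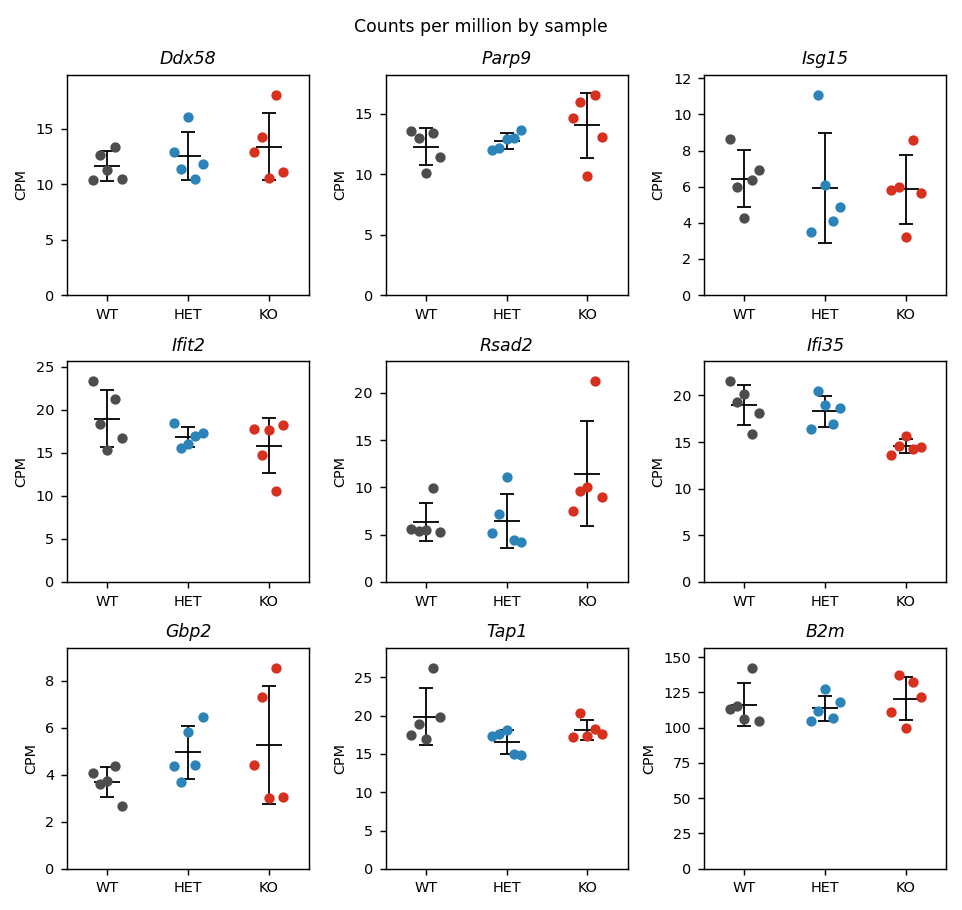
CPM (y axis, from 0) of 9 members in the 5 columns of each genotype; points are columns in the order of replicates 1 to 5, and the black bar and whiskers give the mean ± SD. Ifi35 is the one panel in which KO and WT points do not overlap, and in the Rsad2 panel KO replicate 4, at 21.2 CPM, stands above the rest.

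Columns of the same genotype differed by several fold for many induced members. Ifit1, which binds viral RNA that lacks a methylated cap, spanned 1.71 to 6.55 CPM in WT, and its highest column exceeded its lowest by 3.84-fold in WT, 4.85-fold in HET and 5.06-fold in KO. For the 5 genes of the IFIT, ISG15 and USP18 group the median ratio of the highest to the lowest column was 2.69 in WT, 3.16 in HET and 3.16 in KO, and for the 9 genes of the OAS and MX group it was 1.88, 2.55 and 3.33. These ratios compare with 1.42, 1.38 and 1.54 for all genes tested that had a count in every column. The 6 class I genes were steadier, at 1.49, 1.36 and 1.39.

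Single columns were high or low for many members at once. Among KO columns, replicate 4 was highest for 28 of 40 members (70.0%, against 21.8% of all genes tested), and replicate 3 was lowest for 31 of 40 (77.5%, against 14%). Among WT columns, replicate 1 was highest for 27 members (67.5%, against 24%) and replicate 3 was lowest for 21 (52.5%, against 15.6%). In HET the high end was split between replicate 2, highest for 17 members (42.5%, against 19.4%), and replicate 3, highest for 15 (37.5%, against 22.5%), and replicate 4 was lowest for 23 (57.5%, against 26.4%). WT and KO thus each held 1 column that was highest and 1 that was lowest for most of the list, while in HET this held at the low end and not at the high end. Among the 34 members outside class I, the median deviation of KO replicate 4 from the KO mean was 0.48 on the log2(CPM + 0.5) scale and that of KO replicate 3 was -0.57, while the medians over all genes were -0.02 and -0.01. For the 6 class I genes the deviations were smaller, 0.10 and -0.20, and the high WT column was replicate 4, which led for 4 of the 6, rather than replicate 1, which led for 2.

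**Figure D3:**
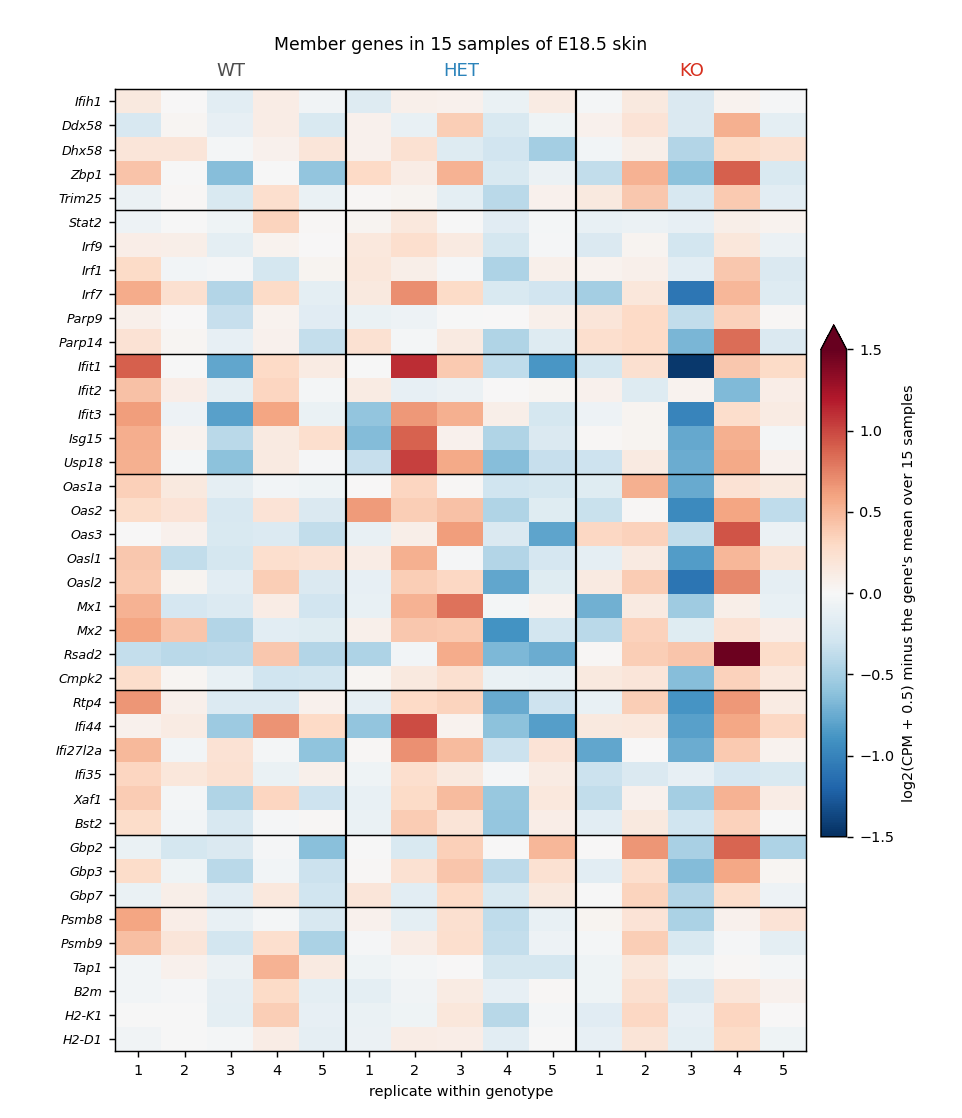
Heat map of the 40 members (rows, grouped by role, black lines between groups) in the 15 columns (x axis, replicates 1 to 5 of WT, HET and KO). Colour gives log2(CPM + 0.5) minus the gene's mean over all 15 columns, red above and blue below. Rsad2 in KO replicate 4 lies close to the red end of the scale. Vertical stripes are strongest at KO replicate 4 (red) and KO replicate 3 (blue). Others appear at WT replicate 1 and HET replicates 2 and 3 (red) and at WT replicate 3 and HET replicate 4 (blue). No block of colour follows a genotype.

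The spread between columns was seen again for the title numbers that were sequenced in both title series. KO replicate 4, WT replicate 1 and HET replicate 4, which stood out above, had a library in the second series alone. Their levels could not be checked in this way. Leaving out number 35, 8 numbers had a library in each series, and the median absolute difference of the members between the 2 libraries of a number was 0.14 on the log2(CPM + 0.5) scale, against 0.33 between libraries of different numbers of the same genotype and series (14 pairs); over all genes tested these values were 0.10 and 0.22. For the IFIT, ISG15 and USP18 group they were 0.14 and 0.71. Isg15, a ubiquitin-like modifier, had 11.8 and 10 CPM in the 2 libraries of HET replicate 2, and 3.32 and 2.97 CPM in those of KO replicate 3. Across the 40 members and 8 numbers, 260 of 320 deviations from the gene's mean had the same sign in both series (81.2%), and their Pearson r was 0.82; these points share genes and numbers and are given as a description. Whether the 2 libraries of a number came from the same RNA is not stated.

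**Figure D4:**
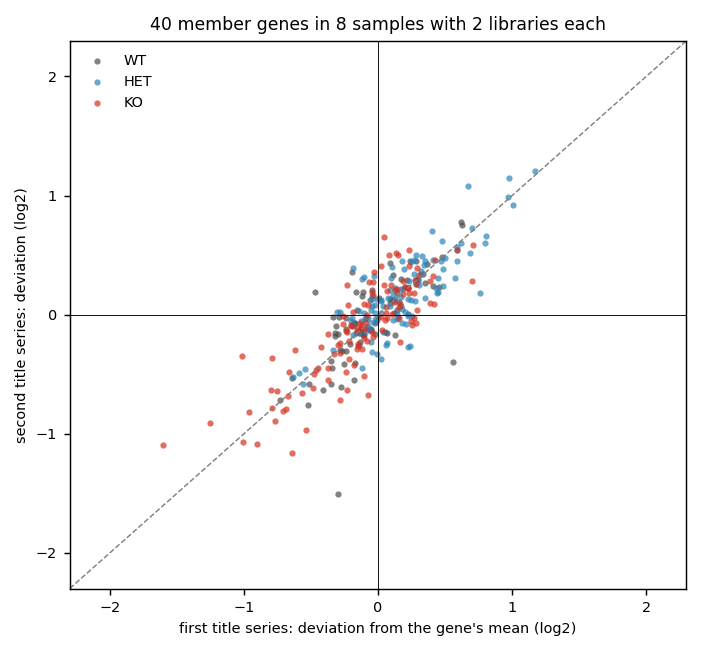
Deviation of each member from its own mean over 8 title numbers, log2(CPM + 0.5), in the first title series (x axis) and in the second (y axis); each point is 1 gene in 1 title number, coloured by genotype, and the dashed line marks equal values. The points lie along the line (Pearson r = 0.82 over 320 points), and the lowest sums of both deviations are mostly from KO replicate 3.

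Promoter sequences of the members were then searched, without regard to how much a gene varied between columns. RefSeq windows (build GRCm38.p6) of 250 bases before to 50 bases after the start site were at hand for 30 of the 40 members. The core of the interferon-stimulated response element, searched on both strands as GAAA, any 2 bases and GAAA, was found in 14 of these 30 genes (46.7%), against 3.99% of 27025 genes with a window (3.44% of 32851 windows). They were Ifih1, Ddx58, Stat2, Ifit1, Ifit3, Isg15, Oas1a, Oas3, Rsad2, Bst2, Gbp2, Gbp3, Gbp7 and B2m. The members were listed as interferon response genes, so this share describes the list and not the differences between columns. The gamma-activated site, searched on both strands as TTC, any 3 bases and GAA, was found in 7 of 30 (23.3%), against 9.55% of genes; these were Irf1, Ifit2, Oas1a, Ifi35, Bst2, Gbp7 and Psmb8, and 3 of them also hold the first motif. The stretches below are the 150 bases that end at the base before the start site, 5′ to 3′ on the strand of the gene, with matches to the first motif on either strand in capitals; they are shown for a pair of genes with wide spread between columns (Isg15, Ifit1), the members with a low p in KO vs WT (Rsad2, Ifi35), a 2-5A synthetase gene (Oas1a) and the member with the highest level per length (B2m).
Isg15 (chr4:156200819-156200968, - strand): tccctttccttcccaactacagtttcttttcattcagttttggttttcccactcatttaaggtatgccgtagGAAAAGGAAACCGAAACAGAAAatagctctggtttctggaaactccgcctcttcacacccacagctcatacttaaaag
Ifit1 (chr19:34640739-34640888, + strand): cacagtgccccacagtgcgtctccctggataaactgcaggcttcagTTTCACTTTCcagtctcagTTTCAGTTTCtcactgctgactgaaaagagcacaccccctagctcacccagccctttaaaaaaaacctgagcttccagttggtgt
Rsad2 (chr12:26456453-26456602, - strand): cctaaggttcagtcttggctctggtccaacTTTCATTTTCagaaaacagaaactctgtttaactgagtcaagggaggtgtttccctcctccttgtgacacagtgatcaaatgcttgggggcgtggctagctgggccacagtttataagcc
Oas1a (chr5:120907526-120907675, - strand): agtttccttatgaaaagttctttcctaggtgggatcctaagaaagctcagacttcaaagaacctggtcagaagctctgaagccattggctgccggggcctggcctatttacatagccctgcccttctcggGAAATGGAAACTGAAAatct
B2m (chr2:122147537-122147686, + strand): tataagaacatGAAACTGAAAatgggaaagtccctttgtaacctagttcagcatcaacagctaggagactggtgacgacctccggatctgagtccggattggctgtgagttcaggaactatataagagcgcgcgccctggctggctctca
Ifi35 (chr11:101448262-101448411, + strand): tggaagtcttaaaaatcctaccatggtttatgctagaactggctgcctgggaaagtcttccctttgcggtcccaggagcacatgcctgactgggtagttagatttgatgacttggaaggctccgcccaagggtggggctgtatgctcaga
Isg15 holds 3 overlapping matches, the first of which starts 78 bases before the start site, Ifit1 holds 2 on the reverse strand and Oas1a 2 close to its start site. Rsad2 and B2m hold 1 each, and the Ifi35 window holds none of the first motif, which says only that these letters are not in it. Among the members with a window, the median SD within a genotype was 0.35 for the 14 with a match (range 0.13 to 0.71) and 0.26 for the 16 without (range 0.13 to 0.58), so both sets held steady and variable genes, and the median log2 fold change in KO vs WT was 0.03 and -0.04.

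In the sensor group, no member had even an unadjusted p below 0.05 in any comparison. Ddx58, which encodes the RNA helicase RIG-I, had the smallest p of the group in KO vs WT. Its columns were 10.4, 12.6, 11.3, 13.4 and 10.5 CPM in WT, 12.9, 11.4, 16.1, 10.5 and 11.8 CPM in HET and 12.9, 14.3, 10.6, 18.1 and 11.1 CPM in KO. The ranges overlapped widely, and the log2 fold change in KO vs WT was 0.20 (SE 0.15, adjusted p = 0.466). Trim25, the ubiquitin ligase gene associated with RIG-I signalling and itself no sensor, was the most abundant gene of this group per length. It had 31.3, 33.8, 28.3, 39.8 and 31 CPM in WT, 33.6, 34.3, 30, 25.1 and 34.9 CPM in HET and 36.9, 44.3, 28.2, 44 and 29.7 CPM in KO, and its KO vs WT value was 0.16 (SE 0.14, adjusted p = 0.534). KO replicates 2 and 4 were above every WT column for both genes, and KO replicate 3 was near the lowest WT column. Ifih1, the gene of the sensor MDA5, was among the steadiest members, with 11.2 ± 1.01 CPM in WT, 11.0 ± 1.06 in HET and 11.0 ± 1.06 in KO.

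The signalling factors had a median log2 fold change of -0.02 in KO vs WT and all 6 intervals lay within a 2-fold change. Parp9, a macrodomain protein gene that shares a promoter region with its partner gene Dtx3l, had 13.6, 13, 10.1, 13.4 and 11.4 CPM in WT, 12, 12.2, 12.9, 13 and 13.7 CPM in HET and 14.7, 16, 9.87, 16.6 and 13.1 CPM in KO. Its log2 fold change in KO vs WT was 0.19 (SE 0.13, adjusted p = 0.412), and KO replicate 3 was below every WT column while 3 KO columns were above them all. Irf9, a DNA-binding subunit that joins STAT2, had 23.7, 23.5, 19.9, 22.9 and 22.1 CPM in WT, 24.7, 26.4, 24.3, 18.3 and 21.9 CPM in HET and 19, 22.8, 18.1, 25 and 20.8 CPM in KO. Its log2 fold change was -0.08 (SE 0.11, adjusted p = 0.682), and its exons overlap those of Rnf31 on the same strand. Irf7, the factor that amplifies interferon production, varied more than Irf9: its highest column exceeded its lowest by 3.31-fold in KO and 2.08-fold in WT.

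For the IFIT, ISG15 and USP18 group, all 5 genes had negative log2 fold changes in KO vs WT, from -0.26 to -0.05, although Ifit1, Isg15 and Usp18 turned positive in some of the 25 alternative fits, and none passed the adjusted p limit; the median was -0.25 and the median SE 0.38. Ifit2, which binds RNA and restrains translation, had 23.34, 18.29, 15.3, 21.29 and 16.72 CPM in WT, 18.45, 15.62, 16.04, 16.98 and 17.28 CPM in HET and 17.82, 14.75, 17.75, 10.59 and 18.23 CPM in KO. KO replicate 4 was the lowest column of all for Ifit2, although it was highest among KO columns for Ifit1, Ifit3, Isg15 and Usp18, and the log2 fold change was -0.26 (SE 0.14, adjusted p = 0.323). Isg15 had 8.64, 6, 4.24, 6.37 and 6.95 CPM in WT, 3.51, 11.1, 6.07, 4.1 and 4.88 CPM in HET and 5.83, 5.98, 3.19, 8.58 and 5.67 CPM in KO. Its genotypes overlapped throughout, and its log2 fold change in KO vs WT was -0.14 (SE 0.30, adjusted p = 0.826). Usp18, the protease that removes ISG15 and dampens receptor signalling, had 2.29 ± 0.766 CPM in WT, 2.59 ± 1.60 in HET and 2.22 ± 0.899 in KO.

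Besides Rsad2 and Cmpk2, the OAS and MX group showed low levels with wide intervals. Oas3 had 0.439 ± 0.115 CPM in WT, 0.528 ± 0.370 in HET and 0.771 ± 0.456 in KO, and its log2 fold change in KO vs WT was 0.78, with an interval of -0.19 to 1.75 and an adjusted p of 0.349. Mx1, of which the C57BL/6 strain is known to carry a defective allele, had 2.04, 0.985, 1.04, 1.42 and 0.957 CPM in WT, 1.14, 2.05, 2.61, 1.24 and 1.34 CPM in HET and 0.571, 1.44, 0.724, 1.39 and 1.14 CPM in KO. The HET mean was the highest, the columns of all genotypes overlapped, and the KO vs WT value was -0.29 (SE 0.32). The remaining genes of the group, Oas1a, Oas2, Oasl1, Oasl2 and Mx2, had log2 fold changes from -0.25 to 0.01. Oas1a belongs to a family of near copies, as do Mx1 and Mx2, the GBP genes, Ifit3 and the class I heavy chains, and how the counting split reads between copies is not stated.

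Apart from Ifi35, the other induced genes and the guanylate-binding protein genes overlapped between all genotypes. Bst2, the gene of tetherin, had 24.9, 19.9, 17.2, 20.2 and 20.7 CPM in WT, 19.1, 26.7, 23.4, 13.5 and 21.9 CPM in HET and 18.2, 22.6, 16.5, 26 and 20.3 CPM in KO, and its KO vs WT value was 0.01 (SE 0.16, adjusted p = 0.980), with a sign that changed with the scaling. Gbp2, a GTPase gene that acts on vacuoles of intracellular pathogens, had 4.08, 3.59, 3.73, 4.37 and 2.67 CPM in WT, 4.39, 3.68, 5.81, 4.42 and 6.46 CPM in HET and 4.42, 7.3, 3.02, 8.53 and 3.05 CPM in KO. Its KO columns fell apart, with replicates 1, 2 and 4 above all WT columns and replicates 3 and 5 below 4 of the 5, and its log2 fold change was 0.51 (SE 0.27, adjusted p = 0.306), or 0.27 without KO replicate 4. Gbp7 had 13, 14.8, 12.4, 15.6 and 11.2 CPM in WT, 15.8, 12.4, 17.3, 11.8 and 15.5 CPM in HET and 13.8, 17.6, 10.1, 16.8 and 13.2 CPM in KO, and its KO vs WT value was 0.09 (SE 0.15, adjusted p = 0.747). Rtp4, Ifi44, Ifi27l2a and Xaf1 had log2 fold changes between -0.21 and 0.00, and Gbp3 one of 0.17.

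The class I genes had the smallest median SE of the 7 groups (0.12), and all 6 lay within a 2-fold change in each comparison. B2m had 113, 115, 106, 142 and 105 CPM in WT, 105, 112, 127, 107 and 118 CPM in HET and 111, 137, 100, 132 and 122 CPM in KO. The columns overlapped and the log2 fold change in KO vs WT was 0.05 (SE 0.10, 95% interval -0.16 to 0.27, adjusted p = 0.803), positive by TMM and -0.01 by total counts. The heavy chain genes H2-K1 and H2-D1 both had log2 fold changes of 0.06, with SEs of 0.13 and 0.09, and the immunoproteasome genes Psmb8 and Psmb9 both had -0.07, with SEs of 0.18 and 0.21; each of these 4 changed sign in some alternative fits. Tap1, a subunit of the peptide transporter into the endoplasmic reticulum, had 17.5, 18.9, 16.9, 26.2 and 19.9 CPM in WT, 17.3, 17.6, 18.1, 15 and 14.9 CPM in HET and 17.2, 20.3, 17.3, 18.3 and 17.6 CPM in KO. WT replicate 4 was the highest Tap1 column, and the KO vs WT log2 fold change was -0.13 (SE 0.11, adjusted p = 0.518), or -0.01 without that column. Tap1 and Psmb9 lie head to head on chromosome 17 and share exon sequence on opposite strands in the annotation.

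With 1 Dsg1 allele deleted, no gene was called. In HET vs WT, edgeR, DESeq2 and limma-voom each called 0 of the 17094 genes (0%), and in edgeR the adjusted p stayed above 0.1 for every gene (0% passed). No Dsg1 gene passed either, although the summed CPM of the deleted genes was 723 to 933 in WT and 371 to 492 in HET. The fit thus did not pass a difference known from the genotype, and 0 genes passing does not show that no gene differs. Unadjusted p-values under 0.05 were found for 270 genes (1.58%) in edgeR, 279 in DESeq2 and 252 in limma-voom. Of the members, Tap1 had an unadjusted p below 0.05 (1 of 40, 2.5%), with a log2 fold change of -0.26 (SE 0.11, 95% interval -0.50 to -0.02) and an adjusted p of 1.00. Without WT replicate 4 that value was -0.14, with an unadjusted p of 0.136 in the fit across all genes. The members' median log2 fold change was 0.00, with 20 above and 20 below 0, and the median over all genes was 0.00 as well; without WT replicate 2 the members' median was -0.02. HET and WT columns overlapped for every member, and they did not for 0.374% of all genes. The 3 guanylate-binding protein genes had positive values, from 0.12 to 0.42, and 5 of the 6 class I genes negative ones, down to -0.26, and none of these passed. Intervals lay within a 2-fold change for 35 of 40 members.

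KO vs HET uses the same KO columns as KO vs WT and is no second test of them. It gave 0 members called in edgeR, DESeq2 and limma-voom, with edgeR calling 0.181% of all genes; the adjusted p limit alone was passed by 0 members in edgeR, against 0.333% of all genes, and in DESeq2 Ifi35 did, with an adjusted p of 0.0549. Rsad2, Mx1 and Ifi35 had an unadjusted p below 0.05 (3 of 40, 7.50%), against 16.0% of all genes. The log2 fold change was 0.82 for Rsad2 (SE 0.31, adjusted p = 0.233), -0.69 for Mx1 (SE 0.31, adjusted p = 0.294) and -0.33 for Ifi35 (SE 0.09, adjusted p = 0.155). The Rsad2 value was 0.48 without KO replicate 4 and 0.12 in the first title series alone, which lacks that column too. Ifi35 was again the 1 member without overlap (2.5%, against 2.25% of all genes). Without WT replicate 2 in the shared fit these 3 members were the same. The median of the 40 was 0.00, beside 0.00 over all genes. All 5 IFIT, ISG15 and USP18 genes were lower in value in KO, from -0.29 to -0.03, and all 6 class I genes were higher in value or equal, from 0.00 to 0.16, with no member of either group passing a limit.

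The rest of the pathway was read from 99 further genes, of which 87 passed the filter. In KO vs WT, 0 of the 87 were called in edgeR, 1 passed the adjusted p limit alone (1.15%, against 1.15% of all genes) and 14 had p under 0.05 before adjustment (16.1%, against 19.3%), 10 with higher and 4 with lower values in KO, so neither share was above that of all genes; their median log2 fold change was 0.04. An unadjusted p below 0.05 was found for 1 of the 87 in HET vs WT (1.15%, against 1.58% of all genes) and for 8 in KO vs HET (9.20%, against 16.0%), and none passed after adjustment. All 12 receptor and kinase genes had intervals within a 2-fold change, and Ifnar1, a subunit of the type I receptor, had a log2 fold change of 0.02 (SE 0.06) in KO vs WT. In that list, Jak1 was 0.21 (SE 0.09, adjusted p = 0.232), the feedback inhibitor Socs1 was -0.33 (SE 0.16, adjusted p = 0.261) and Ifngr1 was 0.35 (SE 0.19, adjusted p = 0.316). Among 12 sensing genes, the factor genes Irf5 and Irf3 were 0.33 (SE 0.13, adjusted p = 0.185) and -0.17 (SE 0.07, adjusted p = 0.211), and the mitochondrial adaptor gene Mavs was 0.28 (SE 0.12, adjusted p = 0.229). None of these passed the adjusted p limit.

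The gene of the wider pathway that passed the adjusted p limit was Nlrc5, the transactivator of MHC class I genes. Nlrc5 had 2.81, 2.64, 2.24, 3.13 and 2.27 CPM in WT, 3.09, 3.16, 2.83, 2.21 and 3.25 CPM in HET and 3.88, 6.82, 2.77, 6.32 and 4.52 CPM in KO. Of the KO columns, 4 were above all WT columns, and the other, replicate 3, was low for most members too. Its log2 fold change was 0.89 in KO vs WT (SE 0.21, adjusted p = 0.0915), under the fold limit of a call, and 0.73 in KO vs HET (SE 0.21, adjusted p = 0.159). It was higher in KO in all 25 alternative fits, from 0.73 to 1.04, passing the adjusted p limit in 10. Without KO replicate 3 it was 1.04 with an adjusted p of 0.0185, which would be a call, and without WT replicate 2 it was 0.89 with an adjusted p of 0.212. The class I genes that NLRC5 is known to act on, B2m, H2-K1, H2-D1, Tap1 and Psmb9, had log2 fold changes from -0.13 to 0.06, given above. Of the other class I pathway genes, the aminopeptidase gene Erap1 was 0.39 (SE 0.14, adjusted p = 0.168) and the nonclassical H2-T22 was -0.26 (SE 0.10, adjusted p = 0.168). The 15 genes of that list, Nlrc5 included, had a median of 0.13 in KO vs WT, with 10 above and 5 below 0. The median over all genes tested was -0.01.

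Among 40 tested genes of the further interferon-stimulated list, the kinase gene Eif2ak2 (PKR) was 0.29 in KO vs WT (SE 0.11, adjusted p = 0.168), Ifitm2 was -0.25 (SE 0.10, adjusted p = 0.188) and the chemokine gene Cxcl9, which is raised by interferon gamma, was 1.01 (SE 0.39, adjusted p = 0.184). Cxcl9 was scarce, with 0.922, 0.956, 0.695, 0.473 and 0.201 CPM in WT, 1.07, 0.818, 1.8, 0.651 and 1.39 CPM in HET and 1.71, 1.22, 1.32, 1.95 and 0.476 CPM in KO. In KO 4 columns and in HET 3 were above every WT column, and both ranges overlapped WT. The class II genes, which display peptides to CD4 T cells on professional presenting cells, had the median farthest from 0 in HET vs WT: all 8 had negative log2 fold changes there, with a median of -0.32, and 0 passed the adjusted p limit while H2-Ab1 had an unadjusted p of 0.0210 in that fit across all genes. HET replicate 5 was the lowest HET column for 7 of the 8, all but Ciita, and also for the summed macrophage and Langerhans cell genes, at 216 CPM; without it the median was -0.13, with 7 of 8 negative. The median sums of the macrophage and of the pan-leukocyte genes were 266 and 111 CPM in HET and 311 and 127 CPM in WT, and the part of these cells in the class II values was not tested. H2-Ab1, a class II beta chain, had 10.3, 9.97, 8.95, 11.1 and 8.96 CPM in WT, 9.63, 7.4, 7.25, 7.94 and 4.31 CPM in HET and 7.99, 6.01, 6.6, 6.58 and 8.66 CPM in KO. Its KO columns did not overlap WT, which held for 3.37% of all genes tested as well. The H2-Ab1 log2 fold changes were -0.46 in KO vs WT (SE 0.17, adjusted p = 0.168) and -0.43 in HET vs WT (SE 0.17, adjusted p = 1.00). In KO vs WT, H2-DMb1 and H2-DMa, whose products load class II molecules, were -0.30 (SE 0.23, adjusted p = 0.486) and 0.19 (SE 0.16, adjusted p = 0.522).

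The cells that could carry these genes were followed by marker lists. The summed level of 4 pan-leukocyte genes was 117 to 141 CPM in WT, 97.9 to 135 in HET and 102 to 131 in KO, and that of 8 macrophage and Langerhans cell genes was 222 to 375, 216 to 344 and 201 to 377 CPM; 0 genes of either list passed the adjusted p limit in KO vs WT. Neutrophil genes, 5 of 7 of them tested, summed to 5.44 to 8.23 CPM in WT, 4.45 to 13.5 in HET and 5.53 to 16.2 in KO. Of those tested, 1 passed the adjusted p limit in KO vs WT, against 1.15% of all genes. The neutrophil list was not uniform. Camp, the largest part of the WT sum, had a mean of 3.27 CPM in WT and 3.21 in KO. The other means were higher in KO, Cxcr2 at 0.287 CPM in WT and 1.46 in KO among them. T and NK cell genes summed to 2.66 to 4.46 CPM in WT, 2.34 to 5.19 in HET and 3.13 to 7.19 in KO, and the 4 genes listed for plasmacytoid dendritic cells to 249 to 291, 246 to 260 and 183 to 270 CPM. That last sum was above the pan-leukocyte sum and came mostly from Tcf4, at a mean of 221 CPM in WT, and Bcl11a, at 48.2 CPM, which other cells also express, whereas the more specific Siglech had 0.187 CPM and Ccr9 1.59 CPM, so the sum is no measure of these cells. Endothelial genes summed to 272 to 356, 224 to 376 and 265 to 456 CPM, and skeletal muscle genes to 9074 to 16006, 10220 to 14431 and 7112 to 14156 CPM. KO replicate 4, high for the members, was the lowest KO column for fibroblast and pan-leukocyte genes and the highest for endothelial genes, and KO replicate 3, low for the members, was the lowest for macrophage genes and the highest for neutrophil genes and for 7 erythroid genes, at 9045 CPM. WT replicate 4 had the highest WT sum of keratinocyte, fibroblast, pan-leukocyte, macrophage, endothelial and erythroid genes and the lowest of T and NK cell and skeletal muscle genes. WT replicate 1, the column high for most members, had the lowest WT sum of keratinocyte, fibroblast and erythroid genes, and HET replicate 2 had the highest HET sum of keratinocyte genes and the lowest of fibroblast and pan-leukocyte genes. The part of cell makeup in the members' differences was not tested.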

How the data were processed

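Skin RNA-Seq counts of 24 libraries at E18.5 were analysed. The deposited table holds raw counts, whole numbers per gene symbol; the submitters' processing notes name STAR and HTSeq, without versions, and the build hg19, a human build that does not match the mouse symbols, so which build and annotation were used, and whether strand was, is unknown here. A total of 0 columns were left unused. Libraries with the same title number and genotype were summed to 15 columns (15.3 to 33.7 M counts, whose precision covers counting error only). Genes kept by filterByExpr were scaled by TMM and fitted in edgeR 4.0.16 (R 4.3.3; robust quasi-likelihood F-test, all 3 genotypes in one fit), with Benjamini-Hochberg adjustment over 17094 genes. A call needed an adjusted p at most 0.1 and at least a 2-fold change. Each SE is the fold change over the root of its F value. CPM are edgeR's cpm values on TMM-scaled library sizes; log2 spreads use a pseudocount of 0.5 CPM. Alternatives were DESeq2 1.42.0, limma-voom 3.58.1, other scalings, filters, library choices, a Y-linked covariate and each column left out.

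The members and lists were chosen with earlier results of these data known. Genes given with every column were, in each role group, the member with the lowest p in KO vs WT and the one with the highest CPM per kb, any member passing the adjusted p limit in a comparison, and any whose KO and WT columns do not overlap; of other pathway genes, up to 3 per list with the lowest p and any passing that limit were named. The fit was tested on simulated data (KO vs WT, 200 genes set to a 4-fold change), where edgeR recovered 194 and made 5 false calls over 16929 genes. The changed genes were picked above a minimum level, and genes were drawn independently of each other. How well smaller changes, or changes in scarcer genes, are found was not tested. Exon lengths and chromosomes came from GENCODE M21 (GRCm38), in which all 40 members were matched; promoter windows came from RefSeq on GRCm38.p6, and 10 members without a window were not analysed for motifs.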

Additional observations from a re-analysis of the deposited data

Results flagged for a closer look

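For 40 members and 15 other named pathway genes, each genotype's 5 columns were examined for a highest or lowest column set far from the other 4 (by Dixon's 95% limit on the gap over the range); 12 of 165 groups had one, 7 of them among the 120 groups of members. For normally distributed values chance gives about 1 in 20 groups, but CPM were used untransformed and the genes are not independent of each other. The share over all genes tested was not counted, so whether these numbers are unusual for this table is not known. WT replicate 4 was the highest WT column for 31.3% and the lowest for 32.4% of all genes tested. WT replicate 4 was the distant column for 6 genes: Stat2 at 30.5 CPM (others 22.9 to 24.4), Rsad2 at 9.93 CPM (5.29 to 5.63), B2m at 142 CPM (105 to 115), H2-K1 at 52.7 CPM (36.8 to 40.5), Jak1 at 247 CPM (195 to 205) and H2-T22 at 36.2 CPM (28.7 to 30.1). Rsad2 was also distant in KO replicate 4, at 21.2 CPM against 7.45 to 10 CPM. Cmpk2 was low in KO replicate 3, at 5.4 CPM against 9.71 to 11.2 CPM. Rtp4 was high in WT replicate 1, at 10.8 CPM against 5.68 to 7.01 CPM. Among other pathway genes, Socs1 was low in HET replicate 4 at 7.48 CPM (10.5 to 11.5), Mavs was high in HET replicate 3 at 35 CPM (26.5 to 28.4) and Erap1 was high in WT replicate 5 at 23.1 CPM (19.2 to 20).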

How the results depend on the processing

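No paired analysis was possible because the genotypes share no title number. Each result was recomputed under the alternatives, and 609 of 703 values kept their direction and their side of the limit, or stayed close to the value given. A median of the members counted as close within 0.25 on the log2 scale, which is wider than the medians themselves. Some values had little room to move, such as fold changes in KO vs WT without a HET column. The total is thus no measure of how firm a result is. The first title series alone holds 3 libraries per genotype and lacks KO replicates 4 and 5. The count of all genes called moved most. In KO vs WT it was 55, against 190 by DESeq2, 138 with the libraries of number 35 kept apart, 100 by limma-voom, 28 with a Y-linked covariate, 25 at an adjusted p of 0.05, 15 with only the 2 genotypes and 3 in the first title series alone; leaving out single columns gave 20 (WT replicate 2) to 240 (KO replicate 5). In KO vs HET it was 31, against 126 by DESeq2, 10 at an adjusted p of 0.05, 3 with only the 2 genotypes and 3 in the first series alone, and 10 to 113 leaving out single columns. In HET vs WT, leaving out single columns gave 0 to 1 (without WT replicate 1).
The number of members with an unadjusted p below 0.05 was 2 in KO vs WT, 0 in the first series alone and 1 to 6 leaving out single columns. It was 6 without KO replicate 3, namely Parp9, Oas3, Rsad2, Cmpk2 and Gbp2 with higher and Ifi35 with lower values in KO, and 1 (Ifi35) without KO replicate 4; the members' median was 0.10 and -0.10 in these fits. In HET vs WT it was 1, against 0 in the first series alone, by limma-voom and with the covariate, and 0 to 2 leaving out single columns (0 without WT replicate 4 or 5 or HET replicate 4 or 5, and 2 without HET replicate 2). In KO vs HET it was 3, against 5 in the first series alone, where the members' median was -0.32. Signs turned in KO vs WT for Ddx58 (-0.07), Gbp7 (-0.06) and B2m (-0.10) in the first series alone, for B2m (-0.01) and Bst2 (-0.05) by total counts, and for Isg15 (0.00) with the covariate; leaving out single columns gave Isg15 from -0.31 to 0.02 (KO replicate 3) and Bst2 from -0.08 to 0.09, with turned signs without KO replicate 2 (-0.03) or 4 (-0.08) or WT replicate 2 (0.00) or 3 (-0.05). Rsad2 was the 1 member called in any alternative, without WT replicate 4. The causes were not tested.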
